A study of Homo sapiens with 2 samples.

Results

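Long noncoding RNA genes that were well measured in the esophageal squamous carcinoma line KYSE-140 numbered 54, out of 19775 genes that the array names through a probe set with only 1 symbol. They were chosen by symbol and by signal, as probe sets whose only symbol starts with LINC or SNHG, has the form MIR..HG, or is MALAT1, NEAT1, H19, GAS5, PVT1, MEG3, CYTOR or TUG1, and whose signal reached 286, which is 4 times the median signal, in CD90+ or in CD90- cells. Of 1190 probe sets of 894 genes with such a symbol, 77 probe sets of 54 genes passed, 158 lay between the median and that minimum, and 955 stayed under the median on both arrays. The signals on these same arrays thus decided which genes are described, and what follows describes them without a test.

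The 2 RNA samples were CD90+ cells and CD90- cells, sorted by flow cytometry from KYSE-140, a line established from a human esophageal squamous cell carcinoma, with no further treatment named in the labels. Total RNA of each population was read on 1 Affymetrix U133 Plus 2.0 array as MAS5 signal, a linear brightness in arbitrary units. CD90 is the surface glycoprotein encoded by THY1. With 1 array per population nothing measures the spread between sorts, so no p-value, error or interval is given, and each ratio describes these 2 samples of a single cell line.

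Long noncoding RNAs are transcripts without a long reading frame, many of them spliced and polyadenylated like messenger RNA. Some serve mainly as precursors: the introns of SNHG genes and of GAS5 carry small nucleolar RNAs (snoRNAs), which guide chemical modification of ribosomal and other RNAs, and MIR..HG transcripts carry microRNAs, which lower the translation and stability of target messenger RNAs. Others act as the RNA itself, such as MALAT1 at nuclear speckles. In squamous epithelium miR-205 marks the basal layer, and miR-200c with miR-141 holds down the transcription factors ZEB1 and ZEB2, which drive the epithelial-mesenchymal transition.

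The name host transcript was borne out for 12 of the 54 genes. In the RefSeq annotation of GRCh38.p14, 5 had a named snoRNA gene inside their span and 7 a named microRNA gene, while 0 of the 40 LINC genes had either. All but TUG1, which RefSeq now lists as protein-coding, are annotated as long noncoding RNA (53 of 54). The rule favours LINC genes, because a probe set that also carries the symbol of its snoRNA or microRNA has several symbols and was left out. There were 55 such probe sets with several symbols at the signal minimum, 35 of them sharing the name with a snoRNA, small Cajal body RNA or microRNA. NEAT1 and H19 had 0 probe sets of their own for this reason. MEG3 had 10 and PVT1 had 1, all under the median on both arrays, and CYTOR reached 87.5 at most on its 1. A further 4 probe sets of PVT1 and 1 of CYTOR carry several symbols and were left out.

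The microRNAs inside the 7 host genes are shown first, because their hosts had the smallest share of probe sets within 1.5-fold of equality between the populations, 2 of 8. RefSeq gave 16 mature sequences with 14 different seeds, the stretch from base 2 to base 8 that pairs with targets. Those shown are arms from MIR31HG, MIR205HG and MIR200CHG and the pairs that share a seed, written 5′ to 3′ with the seed in capitals. miR-181a-5p and miR-181b-5p, both from MIR181A2HG, share 1 seed. miR-200c-5p and miR-550a-3p, from separate hosts, share another. miR-200c-3p and miR-141-3p, both from MIR200CHG, have seeds that are not identical. The array measures the long host transcript and not these mature products.
hsa-miR-31-5p: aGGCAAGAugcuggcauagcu
hsa-miR-205-5p: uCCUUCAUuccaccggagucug
hsa-miR-200c-3p: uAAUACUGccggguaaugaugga
hsa-miR-141-3p: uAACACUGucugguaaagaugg
hsa-miR-200c-5p: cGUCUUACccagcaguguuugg
hsa-miR-550a-3p: uGUCUUACucccucaggcacau
hsa-miR-181a-5p: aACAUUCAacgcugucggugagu
hsa-miR-181b-5p: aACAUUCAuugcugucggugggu

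In GRCh38.p14, miR-31-5p lies at chr9:21512158-21512178 on the minus strand and miR-205-5p at chr1:209432166-209432187 on the plus strand. The sequences of miR-200c-3p at chr12:6963742-6963764 and miR-141-3p at chr12:6964155-6964176 are both on the plus strand.

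The authors had scaled the arrays to a common trimmed mean (499.9, over the 2nd to 98th percentile), and the medians were 72.1 on the CD90+ and 71.1 on the CD90- array. Signals under 71.6, the geometric mean of these medians, were set to that floor. THY1 was higher in CD90+ cells on all 3 of its probe sets, by 3.72-fold on one and by at least 3.41-fold and at least 7.21-fold on the others. All 6 squamous markers with a probe set reached the minimum on both arrays, with summed signals of 79074 in CD90+ and 81568 in CD90- cells. All 5 fibroblast markers, among them COL1A2, COL3A1 and DCN, and all 3 leukocyte markers with a probe set stayed under the floor, at 47.5 or less and 57.3 or less. PECAM1, 1 of 3 endothelial markers, read 98.5 in CD90+ and 70.9 in CD90- cells. In sorted bulk RNA, a different share of cells making a transcript and a different amount per cell cannot be told apart.

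Most of the long noncoding RNAs differed by less than 2-fold between the populations, yet their ratios were more widely spread than those of the array as a whole. Of the 77 probe sets, 6 were at least 2-fold higher in CD90+ cells and 4 at least 2-fold lower, and 67 lay between. Among all 16790 probe sets at the same minimum, 1.82% were higher and 1.49% lower by that much, 3.31% together. A difference under 1.5-fold was seen in 62.3% of the long noncoding RNA probe sets, against 88.1% of all probe sets. With 1 probe set for each gene, 5 of the 54 genes were at least 2-fold higher and 3 lower, beside 2.19% and 1.59% of 9131 genes (3.78% together), and 61.1% lay within 1.5-fold, beside 87.9%.

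The wider spread was seen at dimmer and at brighter signals. Among probe sets whose brighter signal was under 572, 6 of the 36 for long noncoding RNAs were beyond 2-fold, 5 higher and 1 lower, beside 2.53% higher and 2.24% lower of 4780 (4.77% together). From 572 upward, 4 of 41 were beyond 2-fold, 1 higher and 3 lower, beside 1.53% higher and 1.19% lower of 12010 (2.72% together). The 4 were those of LINC01503 and MIR31HG and both probe sets of LINC01206. The 41 were also dimmer than the 12010, with a median brighter signal of 1026 against 1654. Long noncoding RNAs with other kinds of name, such as antisense and divergent transcripts, had 197 probe sets at the minimum, of which 3.05% were higher and 4.06% lower by 2-fold (7.11% together) and 82.7% lay within 1.5-fold. Because 1 bright array is enough to pass, the rule lets in probe sets that differ: 14 of the 77 passed in CD90+ cells alone and 7 in CD90- cells alone. The 56 that reached the minimum on both arrays held 1 higher and 1 lower probe set. Among all 15043 probe sets that did so, 0.804% were higher and 0.718% lower (1.52% together). Of the 56, 42 lay within 1.5-fold, beside 91.9% of the 15043. The median log2 ratio (CD90+ over CD90-) was 0.16 over the 77 probe sets and -0.0057 over the 54 genes, beside -0.0078 over all probe sets, where the 77 include 9 probe sets of MALAT1 and 4 of TUG1, all above 0.

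**Figure D1:**
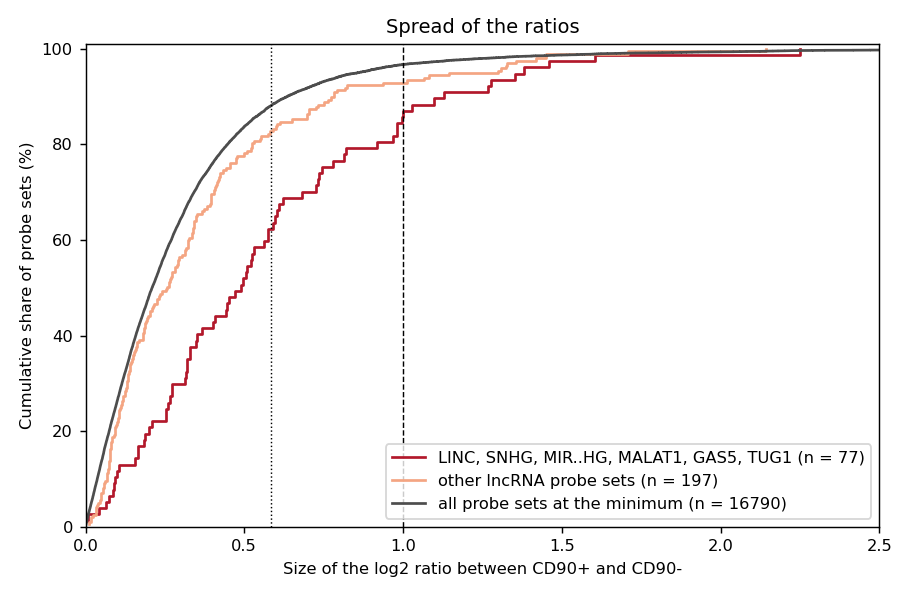
Cumulative share of probe sets (%) against the size of the log2 ratio between CD90+ and CD90- cells, for the 77 long noncoding RNA probe sets (red), 197 probe sets of other long noncoding RNAs (orange) and all 16790 probe sets at the signal minimum (grey). The dotted line marks 1.5-fold and the dashed line 2-fold; the red curve stands at 62.3% at the dotted line, the grey one at 88.1%.

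**Figure D2:**
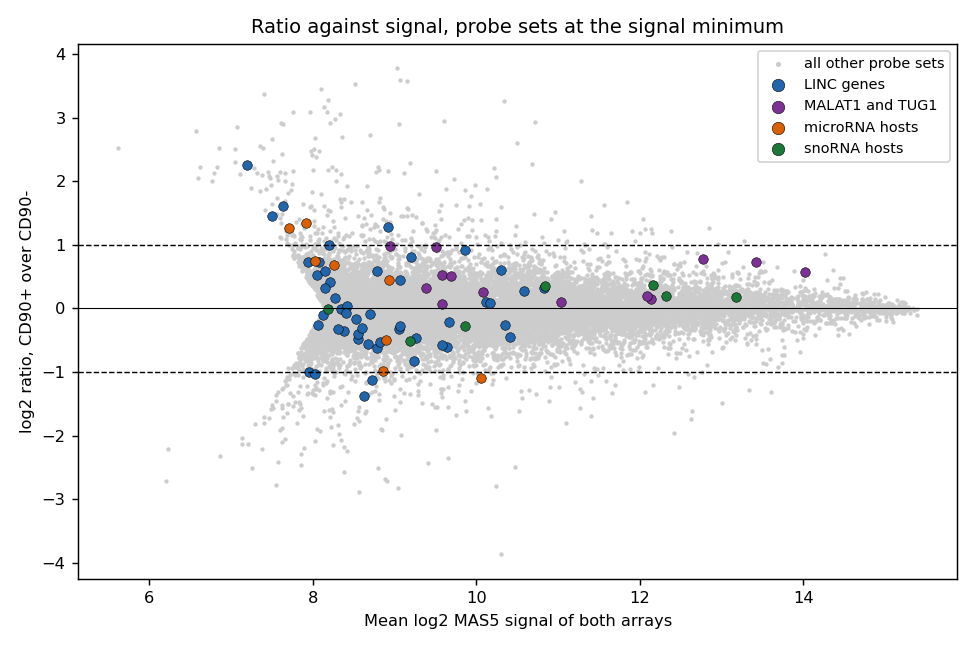
Log2 ratio, CD90+ over CD90-, against the mean log2 signal of both arrays for every probe set at the minimum (grey), with the long noncoding RNAs coloured by kind and dashed lines at 2-fold. Of the 8 microRNA host points 2 lie within 1.5-fold and the others further out on both sides, all 7 snoRNA host points lie within 1.5-fold, and all points of MALAT1 and TUG1 lie above 0.

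MALAT1, a long RNA retained in the nucleus at speckles rich in splicing factors, was higher in CD90+ cells on all 9 of its probe sets at the minimum, though by less than 2-fold on each. Its probe set with the highest signals read 20371 in CD90+ and 13672 in CD90- cells, and the next 14213 against 8536 and 9170 against 5343. Ratios on the log2 scale ran from 0.07 to 0.98 with a median of 0.58, and their SD over the 9 probe sets was 0.34. The smallest difference was 788 in CD90+ against 749 in CD90- cells, and the largest 693 against 351, a 1.97-fold difference. Both of these probe sets, and the one with the highest signals, are of the _x_at class, which can bind related sequences. At the minimum, the only MALAT1 probe set outside the _x_at and _s_at classes read 751 in CD90+ against 598 in CD90- cells, 1.26-fold higher. The other 3 probe sets of MALAT1 were dimmer and read 145, 85.0 and 67.3 in CD90+ cells against 116, 84.8 and 58.9 in CD90- cells. The 50 measured genes nearest to MALAT1 had a median log2 ratio of 0.22.

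TUG1, a widely expressed RNA first found as a taurine-upregulated gene in retina, was also higher on all 4 of its probe sets at the minimum, by a smaller amount. Signals were 4752, 4653, 1183 and 983 in CD90+ cells, against 4267, 4082, 993 and 691 in CD90- cells. The log2 ratios ran from 0.16 to 0.51. Its other 2 probe sets were under the floor on both arrays.

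The snoRNA hosts were the group with the smallest differences, and all 7 of their probe sets lay within 1.5-fold. Of all 16790 probe sets at the minimum 88.1% did so, so 7 of 7 from 5 genes does not set these hosts apart. SNHG32 gave 9913 in CD90+ cells, against 8715 in CD90- cells, a log2 ratio of 0.19, and SNHG19 read 5474 against 4766, a log2 ratio of 0.20. The pair of probe sets of SNHG33 read 5198 and 2071 in CD90+ cells, against 4028 and 1628 in CD90- cells, 1.29-fold and 1.27-fold higher. SNHG17 went the other way on both of its probe sets, with 849 and 491 in CD90+ cells against 1026 and 697 in CD90- cells. GAS5, whose span holds 11 named snoRNA genes, was represented by 1 probe set at the edge of the minimum, with 291 in CD90+ and 292 in CD90- cells. The other probe sets of GAS5 carry several symbols and were not used.

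Short windows at the annotated starts of these hosts are shown because snoRNA host transcripts often begin with a C followed by a run of pyrimidines, the terminal oligopyrimidine tract known from messages for ribosomal proteins. Each window holds 20 bases before and 30 bases from the annotated start in RefSeq (GRCh38.p14), and capitals mark an unbroken run of C and T that begins with C at the start. A run of 5 or more was found at the starts of SNHG19 and SNHG32, and among the other long noncoding RNA genes at those of LINC00460 and LINC02035. That was 4 of 47 annotated starts of 41 genes with a sequence, or 8.51%, beside 4.07% of 35116 starts in the table. Annotated starts need not be those used in these cells.
SNHG19: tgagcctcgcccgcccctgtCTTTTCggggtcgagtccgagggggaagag
SNHG32: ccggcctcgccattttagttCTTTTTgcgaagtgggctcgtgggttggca
SNHG17: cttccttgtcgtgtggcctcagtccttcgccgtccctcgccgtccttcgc

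The SNHG19 window is chr16:2155329-2155378 on the minus strand, that of SNHG32 chr6:31834896-31834945 on the plus strand and that of SNHG17 chr20:38435299-38435348 on the minus strand. SNHG17 is shown as a start with no such run, and those of GAS5 and SNHG33 had none of 5 or more either.

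MicroRNA hosts differed in both directions, and 2 of their 8 probe sets lay within 1.5-fold. MIR31HG, the host of miR-31 on chromosome 9, read 730 in CD90+ and 1562 in CD90- cells, 2.14-fold lower in CD90+ cells, on its 1 probe set. MIR570HG was 1.97-fold lower, at 330 in CD90+ and 652 in CD90- cells. A second, dimmer probe set of MIR570HG read 59.9 in CD90+ and 96.6 in CD90- cells. MIR550A3HG read 403 in CD90+ and 568 in CD90- cells.

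The remaining microRNA hosts were higher in CD90+ cells. MIR200CHG, host of miR-200c and miR-141, read 325 in CD90+ and 135 in CD90- cells, 2.41-fold higher, on 1 probe set of the _x_at class. MIR205HG, host of the basal squamous miR-205, was 1.68-fold higher, with 340 in CD90+ and 203 in CD90- cells. MIR1915HG had 3 probe sets, and all were higher in CD90+ cells, at 389, 386 and 204 against 242, 151 and 90.4, although the third was under the minimum. Of these the one with 386 against 151 was 2.55-fold higher. MIR181A2HG, which holds copies of miR-181a and miR-181b, read 569 in CD90+ and 417 in CD90- cells. The log2 ratios of the probe sets of these 4 hosts at the minimum ran from 0.45 to 1.35. The 4 were grouped by this direction. All of these probe sets but that of MIR181A2HG passed in CD90+ cells alone, where only a ratio above 0 is possible.

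LINC genes held both the highest and the lowest ratios. LINC00460, reported as raised in several carcinomas, read 341 in CD90+ cells and 63.6 in CD90- cells, under the floor, so it was at least 4.76-fold higher. Its other probe set was under the floor on both arrays, with 53.7 in CD90+ and 15.8 in CD90- cells. LINC03026 was 3.04-fold higher, at 347 in CD90+ and 114 in CD90- cells. LINC00052 was 2.75-fold higher, at 301 in CD90+ and 110 in CD90- cells. LINC01503, described in squamous carcinoma as a transcript driven by a super-enhancer that p63 binds, was 2.42-fold higher, at 757 in CD90+ and 312 in CD90- cells, and was the 1 higher probe set beyond 2-fold that reached the minimum on both arrays. LINC00173 stayed just short of 2-fold, at 416 in CD90+ and 209 in CD90- cells.

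On the lower side, LINC01206 differed on both of its probe sets. They read 246 and 285.5 in CD90+ cells, against 640 and 625 in CD90- cells, which is 2.60-fold and 2.19-fold lower. Both passed in CD90- cells alone, so neither could be higher in CD90+ cells. LINC01127 was 2.04-fold lower, at 183 in CD90+ and 374 in CD90- cells, and LINC00342 just short of it, at 176 in CD90+ and 352 in CD90- cells. In the dimmer population every gene beyond 2-fold other than MIR31HG read 312 or less. With the floor raised to the 75th percentile of signals (397), 0 probe sets were at least 2-fold higher and 1, that of MIR31HG, at least 2-fold lower. Under that floor 0.78% of all 16790 probe sets were higher and 0.608% lower (1.39% together).

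**Figure D3:**
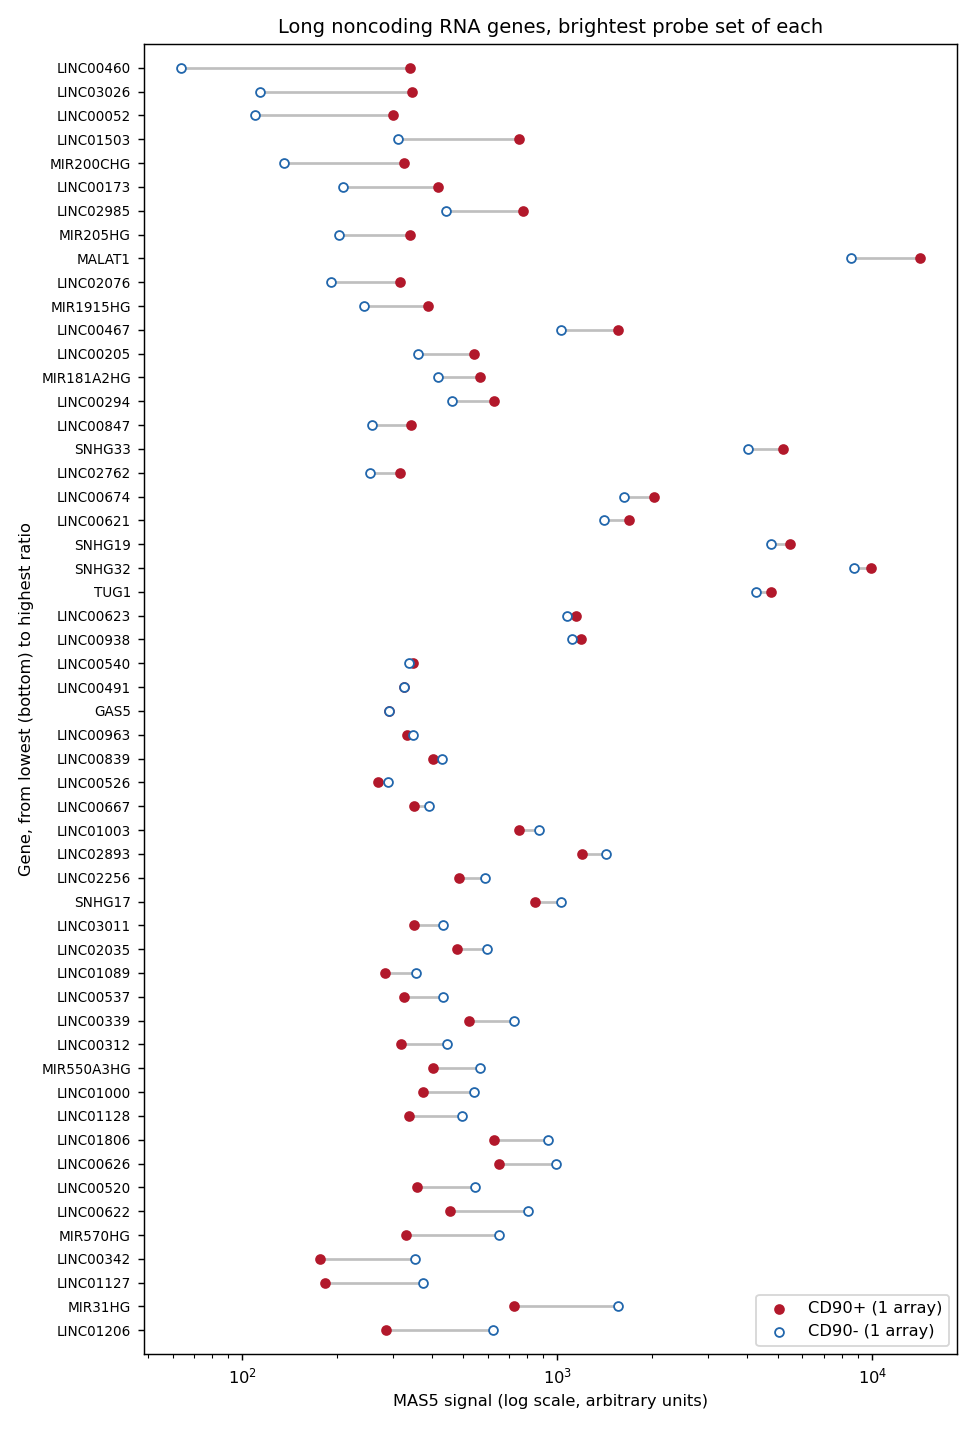
MAS5 signal (log scale) in CD90+ cells (filled red) and CD90- cells (open blue), 1 array each, for 1 probe set of each of the 54 genes, ordered from the highest ratio at the top to the lowest at the bottom. LINC00460 heads the order with 341 in CD90+ against 63.6 in CD90- cells, and LINC01206 stands last with 286 against 625.

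A further group of LINC genes differed between 1.5-fold and 2-fold on the brightest probe set of each. LINC00467 was higher in CD90+ cells on both probe sets, at 1559 and 1276 against 1023 and 676. LINC00205 was higher on all 4 of its probe sets at the minimum, at 544, 349, 348 and 318 in CD90+ cells against 360, 210, 231 and 221 in CD90- cells. The last of these was 1.44-fold higher. Only the one with 544 against 360 passed on both arrays, and the rest of the 4 could only be higher. A dimmer probe set of LINC00205 read 151 against 156, and its others were under the floor. LINC02985 read 779 in CD90+ and 443 in CD90- cells, and LINC02076 read 316 against 191. The dimmer probe set of LINC02076 went the other way, at 89.7 in CD90+ and 114 in CD90- cells, a log2 ratio of -0.35. Lower in CD90+ cells were LINC00622 with 456 against 805, LINC00626 with 652 against 989, and LINC00520 with 357 against 549.

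The other LINC genes singled out, by signal or by number of probe sets, differed by less than 1.5-fold. LINC00674 read 2031 in CD90+ and 1631 in CD90- cells on one probe set and 297 against 379 on the other at the minimum. Its probe sets thus disagreed in direction, and a dimmer one read 89.5 in CD90+ against 122 in CD90- cells. Those of LINC01089 at the minimum disagreed too, with 327 in CD90+ against 292 in CD90- cells on one and 283 against 356 on the other. LINC00621 read 1685 in CD90+ and 1401 in CD90- cells, LINC00938 read 1184 against 1112, and LINC02893 read 1193 against 1423. LINC01000 was lower in CD90+ cells on both probe sets, by 1.37-fold and 1.44-fold, and LINC01806 by 1.49-fold and 1.20-fold. The 19 genes that were not singled out by ratio, signal or number of probe sets, GAS5 among them, differed by less than 1.5-fold, as that choice fixes.

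Agreement between probe sets of a gene is the closest thing here to a repeated measurement, and it covers array noise only. Of the 12 genes with more than 1 probe set at the minimum, 10 had all their ratios on one side of 0. A probe set that passed on 1 array alone could only lie on that side. This held for both probe sets of LINC01206 and of MIR1915HG, for most of those of LINC00205 and for the dimmer one of LINC01806. The same share over all genes was not counted, so the 10 are given as a description. The pooled SD of log2 ratios within the 12 genes was 0.28, beside 0.23 within 3523 genes over the whole array. Of the genes beyond 2-fold, LINC01206 had a second such probe set and MIR1915HG had one at 1.60-fold, while the others rested on 1 probe set at the minimum.

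**Figure D4:**
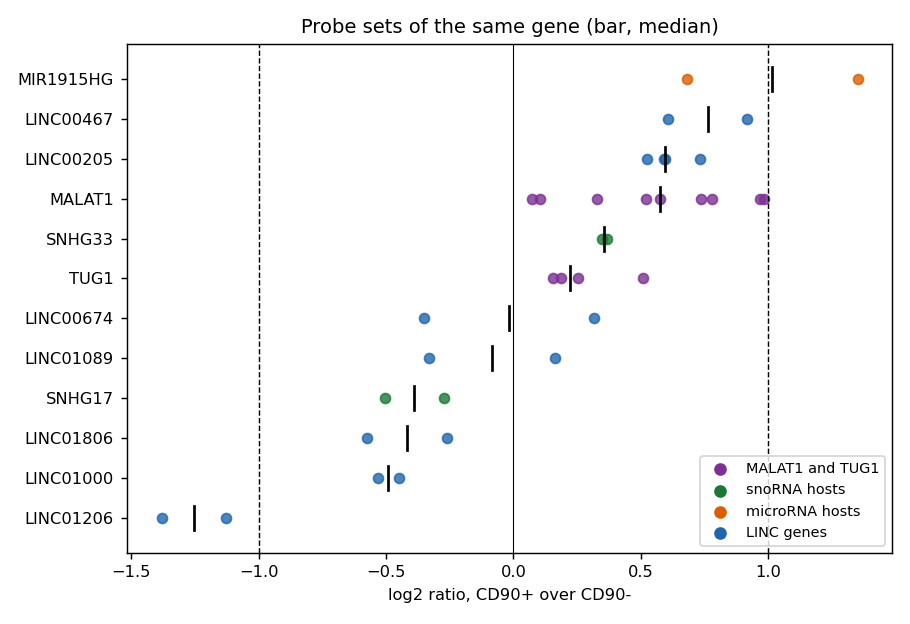
Log2 ratio, CD90+ over CD90-, of each probe set (points) and their median (bar) for the 12 genes with more than 1 probe set at the minimum, with dashed lines at 2-fold. LINC01206 lies beyond -1 on both probe sets, all 9 points of MALAT1 lie between 0.07 and 0.98, and LINC00674 and LINC01089 straddle 0.

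The promoter of LINC00460 is shown because this gene had the highest ratio and because it held more than 1 copy of the AP-1 motif searched. The window runs from 250 bases before to 50 after the annotated start, at chr13:106376314-106376613 on the plus strand of GRCh38.p14 (RefSeq), and capitals mark the motif TGANTCA, which reads the same on both strands.
LINC00460: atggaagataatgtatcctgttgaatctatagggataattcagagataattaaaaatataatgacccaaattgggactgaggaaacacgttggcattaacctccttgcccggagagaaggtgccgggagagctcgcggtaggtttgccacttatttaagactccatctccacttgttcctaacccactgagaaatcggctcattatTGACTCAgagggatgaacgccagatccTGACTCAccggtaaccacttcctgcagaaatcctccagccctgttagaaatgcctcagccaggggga

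The copies begin 44 and 17 bases before the start. TGANTCA was present in 5 of 47 windows of the long noncoding RNA genes, 10.6%, beside 7.71% of 35116 windows of the same length. LINC01206, which was lower in CD90+ cells, also had a copy. LINC00339 too held more than 1 copy, and its log2 ratio was -0.47, so several copies were not particular to LINC00460. The ETS motif CCGGAAG, searched on both strands, was in 8 of 47 windows, 17.0%, beside 10.3% of all, and none of the genes beyond 2-fold with a window had it. TATAAA, searched on both strands, was in 6 of 47, 12.8%, beside 11.5% of all, among them SNHG19 and 1 of the starts of MALAT1, in both at 30 bases before the start. These are matches of letters and not binding sites.

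Neighbouring genes are given beside the members because a gene can share its ratio with its surroundings. The nearest measured protein-coding genes around MIR31HG were lower in CD90+ cells as well: KLHL9 read 3015 in CD90+ against 6950 in CD90- cells and MTAP 1027 against 2505, log2 ratios of -1.20 and -1.29. IFNE, whose span overlaps that of MIR31HG, read 67.7 in CD90+ against 226 in CD90- cells. Over the 50 measured genes nearest to MIR31HG the median log2 ratio was 0.08, with 5 at least 2-fold lower and 0 at least 2-fold higher, and the 4 nearest protein-coding genes were all below 0.

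MIR200CHG lay among genes that were higher in CD90+ cells, with a median log2 ratio of 0.38 over its 50 neighbours and 5 of them at least 2-fold higher. The phosphatase gene PTPN6 beside it read 211 in CD90+ against 91.4 in CD90- cells, a log2 ratio of 1.21. The neighbours of MIR205HG had a median of 0.25, those of LINC01127 -0.35, those of LINC00342 -0.35 and those of MIR570HG -0.31. For MIR181A2HG, MIR1915HG, MIR550A3HG and LINC00173 the medians were 0.11, 0.07, -0.14 and 0.14. Each of these medians was on the same side of 0 as the gene. LINC01127 and LINC00342 both lie on chromosome 2, and whether they share neighbours was not tested. The nearest protein-coding genes were less uniform. Beside LINC01127, MAP4K4 was at -0.32, but CREG2, IL1R2 and IL1RL1 were at 0.12, 0.02 and 0.20. Beside MIR570HG they ran from -0.70 (MUC20) to 0.18 (APOD), and beside MIR205HG from 0.19 (LAMB3) to 1.45 (PLXNA2). The genes named here are a selection, and the share of all members on the same side as their neighbours was not counted. Other members lay on the opposite side. Among them were SNHG33 (0.37 against a neighbour median of -0.16), SNHG17 (-0.27 against 0.09) and LINC00520 (-0.62 against 0.03).

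The neighbours of the other genes beyond 2-fold had medians between -0.13 and 0.16. LINC00460 lies between ERCC5 and EFNB2 among measured genes, with log2 ratios of 0.0091 and -0.23, and the median of its 50 neighbours was -0.13. LINC03026, between CDK20 and SPIN1, had neighbours with a median of -0.05, and LINC00052 neighbours with a median of -0.05. LINC01206 is next to SOX2 among measured genes, which read 23328 in CD90+ against 27407 in CD90- cells, a log2 ratio of -0.23, and its neighbours had a median of -0.10. LINC01503 had neighbours with a median of 0.16, of which 2 were at least 2-fold higher and 0 lower. For LINC01206 and LINC01503 these medians were on the same side of 0 as the gene, and for LINC00460, LINC03026 and LINC00052 on the other. The part of gene dosage or of local chromatin in any of these ratios was not tested.

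**Figure D5:**
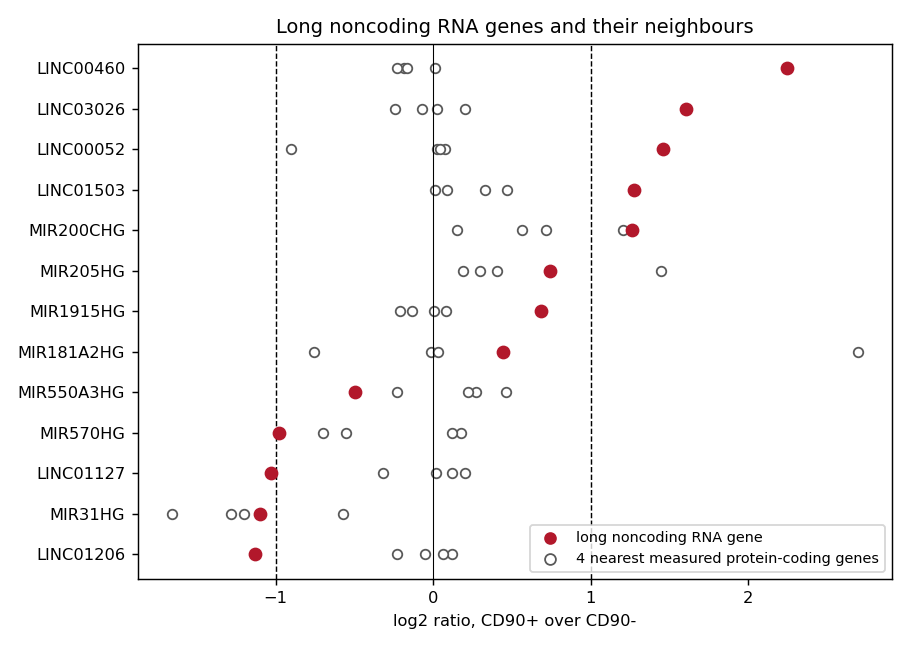
Log2 ratio, CD90+ over CD90-, of the genes beyond 2-fold and of all microRNA hosts (red) and of the 4 nearest measured protein-coding genes of each, 2 on either side (open circles), with dashed lines at 2-fold. All 4 neighbours of MIR31HG lie below 0 and all 4 of MIR200CHG above 0, while those of LINC00460 lie between -0.23 and 0.0091.

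Of the proteins that make, bind or degrade these RNAs, 1 measured gene, AGO4, was beyond 2-fold. The counts below stand beside the 3.78% of all 9131 genes at the minimum that were beyond 2-fold in either direction, so in lists this short they say nothing particular to these proteins. Among snoRNP proteins and snoRNA assembly factors 0 of 16 measured genes were beyond 2-fold, with a median log2 ratio of 0.08. The methyltransferase fibrillarin (FBL) read 16583 in CD90+ and 19113 in CD90- cells, and NHP2 read 14247 against 13417. Among paraspeckle and nuclear speckle proteins 0 of 14 were beyond 2-fold, with a median of -0.05. SRSF1, a splicing factor of speckles, read 18341 in CD90+ and 16028 in CD90- cells, and its relative SRSF3 read 16524 against 16655. The widest ratio in that list was that of PSPC1, a paraspeckle protein singled out here after its values were seen, with 1341 in CD90+ and 2246 in CD90- cells, a log2 ratio of -0.74.

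Of the microRNA processing and effector genes 1 of 12 at the minimum was beyond 2-fold and the list's median was -0.0077. That gene was AGO4, an Argonaute protein that binds microRNAs, which read 727 in CD90+ and 1472 in CD90- cells, 2.02-fold lower. Of the nonsense-mediated decay factors, which degrade many spliced snoRNA host transcripts, 0 of 7 were beyond 2-fold and the median was -0.03, with RBM8A at 9448 in CD90+ and 8642 in CD90- cells and EIF4A3 at 8969 against 8558. The median over all 9131 genes at the minimum was 0.0080.

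Values at the edge of the signal minimum were as follows. Just inside, LINC00526 read 270 in CD90+ and 289 in CD90- cells and LINC01806 read 244 against 292 on its dimmer probe set. Just outside, LINC03068 read 165 in CD90+ and 285 in CD90- cells, LINC01128 read 173 against 283 on its dimmer probe set, and LINC01703 read 274 against 151. The populations were closer in the probe sets just inside than in those just outside.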

How the data were processed

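Expression was measured in 1 CD90+ and 1 CD90- sample of KYSE-140, grouped by the cell population label. The deposited values are linear signal intensities of 54675 probe sets from MAS5, per the submitters' processing notes. MAS5 subtracts mismatch signal, so that ratios of dim probe sets are noisy, and its version is not given in the sources used here. Equal trimmed means on both arrays show that each was scaled. Scanner files and detection calls were not analysed here, and the number of arrays limits the precision.

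Names came from the platform annotation, in which 41097 probe sets had 1 symbol, 1801 several and 11777 none. The gene identifiers of all 77 member probe sets matched the RefSeq table of GRCh38.p14. The 62 control probe sets were left out. Signals under the floor of 71.6 were set to it, the log2 ratio of CD90+ over CD90- was taken for each probe set, and a fold of 2 was counted. Where a gene was given 1 probe set, this was that of highest mean log2 signal outside the _x_at class, or inside it if there was none outside. Genes described in full were those with a log2 ratio of at least 0.58 in size, the 10 with the highest mean signal, those with more than 1 member probe set and all microRNA hosts; in the protein lists, genes beyond 2-fold or else the 2 brightest.

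The members and the gene lists were chosen with earlier results of these data known. There is no replicate, so no test was run; the counting was tested on simulated data. Alternatives were other floors, normalizations, probe set classes, signal minimums and symbols. Python 3.11.15, numpy 2.4.6, pandas 2.3.3, statsmodels 0.14.6 and matplotlib 3.10.9 were used.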

Additional observations from a re-analysis of the deposited data

How the results depend on the processing

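The counts of 6 higher and 4 lower probe sets depended on where signals begin to count. With the floor at the 75th percentile they were 0 and 1, beside 0.78% and 0.608% of all probe sets. With the signal minimum at 143, 129 probe sets passed, of which 15 were higher and 7 lower, beside 2.47% and 2.02% of all 22474 that passed. With it at 572, 41 passed, with 1 higher and 3 lower, beside 1.53% and 1.19%. With the minimum required on both arrays 56 passed, with 1 higher and 1 lower, beside 0.804% and 0.718%. Without the _x_at, _s_at and _a_at classes 46 were left, of which 5 were higher and 3 lower, beside 1.95% and 1.9%, and MIR200CHG and MIR31HG had no value. With 1 probe set for each gene, log2 ratios then moved for MALAT1 (0.74 to 0.33), MIR1915HG (0.68 to 1.35) and LINC01089 (-0.33 to 0.16).

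With no floor, the floor at the 25th percentile, quantile normalization, centring of the median ratio on 0, loess, and 1 probe set per gene, the counts were 5 to 8 higher and 3 or 4 lower. Quantile normalization, centring and loess each put LINC00173 beyond 2-fold, and under loess LINC01127 was no longer so. The median log2 ratio ranged from -0.0057 with 1 probe set per gene to 0.19 with the minimum at 572. Symbols taken from the annotation without update gave the same 77 probe sets. In no alternative run did a gene beyond 2-fold change direction, but the runs could hardly show such a change. A different floor cannot reverse a ratio, and at the 75th percentile LINC00052, LINC00460, LINC01127, LINC03026 and MIR200CHG had a log2 ratio of 0. Of the 8 genes called with 1 probe set each, 5 had no value with the minimum at 572. With the minimum required on both arrays, 6 had none. No paired analysis was possible because each population has 1 array, and no array could be left out.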
